A study of Homo sapiens with 16 samples.

Results

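Hs 936.T and A375 are established human melanoma cell lines, and their ribosome footprints after exposure to the solvent DMSO alone for 30 min were compared here. The comparison took the 2 DMSO libraries of each line by title, 4 of the 16 libraries of the series. All 4 libraries carry the labels DMSO and WT and their line's name, and no drug was added. The series also holds the lung cancer lines NCI-H1650 and NCI-H520, and each of the 4 lines was profiled in 2 DMSO libraries and 1 library each with rocaglamide A (RocA), an inhibitor of the RNA helicase eIF4A, at 0.3 and 3 µM. The labels do not say whether the 2 libraries of a line came from separate cultures, so p-values measure only the spread between these libraries, which may be technical. Each line is one cell line, and a difference between the lines is a difference between these 2 lines.

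In ribosome profiling, RNase digests the mRNA that ribosomes leave bare and the protected pieces are sequenced, so a gene's footprint count follows both how much of its mRNA a cell holds and how densely ribosomes load it. Those contributions cannot be told apart here, because RNA-seq of these cells was not used here. In a bulk library, fewer cells making a transcript and less of it per cell cannot be told apart either. Melanoma cells descend from pigment-producing melanocytes of the neural crest and are known to occupy states along an axis. At one end lies a pigmented state driven by the transcription factor MITF, and at the other a dedifferentiated, mesenchymal-like state with little MITF and much AXL, AP-1 and extracellular matrix.

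Footprints that could be assigned to a named gene numbered 3769501 and 3239725 in the Hs 936.T libraries and 3059198 and 4951364 in the A375 libraries. Values are CPM, each gene's count as a share of these footprints, scaled to a common library size between libraries. Replicate libraries of a line correlated at r = 0.989 (Hs 936.T) and 0.987 (A375) over log2 counts across genes, which are not independent replicates. They varied 1.51 and 2.5 times as much as counting error alone. The NCI-H520 libraries, which enter the fit through the filter, the scaling and the shared spread, stood apart: they held reads of Hs 936.T pigment genes, at a median of 3.77% and 8.83% of the Hs 936.T level over 20 genes, and the second carries the cell-line label NCI-H521. The 20 genes were chosen at 100 CPM or more in Hs 936.T and at least 10-fold higher there than in A375. Their low level in the A375 libraries, 0.201% and 0.212%, therefore follows in part from the choice. Whether these few reads came from A375 cells was not tested. Of 13 markers of blood cells, 7 had no count in any of the 4 libraries, as had 4 of 8 endothelial markers. The summed level of the endothelial markers was 1.68 and 2.25 CPM in Hs 936.T and 10.5 and 7.91 CPM in A375, and that of the blood markers was 5.03 and 11.9 against 25.2 and 24.7 CPM. Both sums were higher in A375, as were most of the matrix and HLA class II genes tested, and their part in those results was not tested. Among the blood markers PTPRC, CD14 and CD3E were at 0 in all 4 libraries.

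Of 11276 genes tested with edgeR's quasi-likelihood test, 3528 were higher in Hs 936.T (31.3%) and 3700 were higher in A375 (32.8%) at an adjusted p under 0.05, so that 64.1% of all tested genes were called. At least 2-fold differences were called for 1821 genes higher in Hs 936.T (16.1%) and 2078 higher in A375 (18.4%). The libraries of the lines did not overlap for 80.2% of the tested genes. The median log2 difference over all tested genes, Hs 936.T minus A375, was -0.01. No footprint was found in either A375 library for 108 genes with more than 3 counts in Hs 936.T, and none in either Hs 936.T library for 253 genes with more than 3 counts in A375. For such genes the fold is a lower bound, set against 3 counts over the 2 libraries of the line (0.369 CPM in A375 and 0.448 CPM in Hs 936.T), and bounds and counting intervals cover counting error only. The same fit called 59.7% of genes between NCI-H1650 and NCI-H520, the lung lines.

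The 20 largest differences towards Hs 936.T, among called genes with at least 10 CPM in the higher line and no overlap of libraries, held 6 melanosomal genes beside myelin, glycogen and germline genes. PMEL, whose protein forms the amyloid fibrils on which melanin is laid down, had 15669.7 and 16288 CPM in Hs 936.T and 16.7 and 9.29 CPM in A375, a log2 difference of 10.35 ± 0.69 (SE, adjusted p = 0.000174). The largest bound belonged to MBP, which encodes myelin basic protein and had 217 and 222 CPM in Hs 936.T and 0 and 0 CPM in A375, at least 594-fold higher in Hs 936.T (adjusted p = 4.76e-29). PYCARD, the adaptor protein of inflammasomes, had 141 and 161 CPM in Hs 936.T and 0 and 0 CPM in A375. No A375 library held a PYCARD footprint, and the level was at least 406-fold higher in Hs 936.T (adjusted p = 2.02e-27). The other genes with 0 counts in both A375 libraries were GYG2 (a glycogenin), BIRC7 (the apoptosis inhibitor livin), GPC3 (a glypican), TDRD1 (a germline Tudor protein), CA14, ST6GALNAC2, CELF2, EPB41L3, APCDD1 and SELENBP1, at bounds from at least 132-fold to at least 362-fold. The 20 genes were ranked by the fitted log2 difference, which runs high for genes with 0 counts, and not by these bounds. OCA2, outside the set, had a larger fold than any of these bounds. The secreted inhibitor WFDC1 had 644 and 688 CPM in Hs 936.T and 0.980 and 0.593 CPM in A375, a log2 difference of 9.71 ± 0.21 (SE, adjusted p = 1.58e-33). CAPN3, a calpain protease of muscle and melanocytes, had 309 and 356 CPM in Hs 936.T and 0.653 and 0.198 CPM in A375 and was 896 times as high in Hs 936.T (95% counting interval 306 to 4347, adjusted p = 1.2e-27).

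Among the 20 largest differences towards A375 were genes of surface receptors, secreted proteins, enzymes, carriers and nuclear proteins. NRP1 encodes neuropilin 1, a co-receptor for semaphorins and VEGF, and had 0 and 0 CPM in Hs 936.T and 104 and 93.5 CPM in A375, at least 217-fold higher in A375 (adjusted p = 1.12e-24). ANPEP, the surface peptidase CD13, had 0.279 and 0 CPM in Hs 936.T and 149.9 and 154 CPM in A375 and was 1019.9 times as high in A375 (95% counting interval 183 to 40314, adjusted p = 7.18e-27). The Wnt antagonist SFRP1 had 0 and 0.964 CPM in Hs 936.T and 253 and 293 CPM in A375 and was 619.8 times as high in A375 (95% counting interval 212 to 3008, adjusted p = 6.27e-20). SOX11, a transcription factor of the developing nervous system, had 0.279 and 0 CPM in Hs 936.T and 105 and 112 CPM in A375 and was 731 times as high in A375 (95% counting interval 131 to 28894, adjusted p = 4.89e-25). All 5 genes of this set with 1 to 3 footprints in Hs 936.T, which also include TGFBI and SLITRK6, had at least 87.9 CPM in each A375 library. The remaining 14 genes had no footprint in either Hs 936.T library: LY6K, IGFBP7, NIBAN1, PXDN (peroxidasin, which crosslinks collagen IV), SLC17A9, CDCP1, ARAP3, ALDH1B1, SLC25A38, SOHLH2, FBN1 (fibrillin 1), NMI, IL7R (the interleukin 7 receptor) and ACOX2. Their bounds ran from at least 55.2-fold to at least 169-fold. The set was ranked by the fitted log2 difference, which runs high for genes with 0 counts, so it is not an order by these bounds. AXL, outside the set, had a larger fold than any of these bounds.

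Pigment cell genes had the largest median difference of the 19 gene lists: of 39 listed genes 38 were tested, 35 were higher in Hs 936.T and 3 higher in A375, with a median log2 difference of 5.38 against -0.01 over all tested genes. The shares were 92.1% and 7.9%, against 31.3% and 32.8% of all tested genes. MITF, the master transcription factor of melanocytes, had 1161 and 1085 CPM in Hs 936.T and 11.1 and 13.4 CPM in A375, a log2 difference of 6.48 ± 0.16 (SE, adjusted p = 8.55e-20). Its level in A375 was low but above 0 in both libraries. Among the enzymes of melanin synthesis, tyrosinase (TYR) had 782 and 801 CPM in Hs 936.T and 1.63 and 0.198 CPM in A375, a log2 difference of 9.96 ± 0.29 (SE, adjusted p = 1.12e-12). TYRP1, which oxidises a later intermediate, had 2241 and 2148 CPM in Hs 936.T and 2.94 and 1.58 CPM in A375, a log2 difference of 9.99 ± 0.48 (SE, adjusted p = 3.84e-05). Dopachrome tautomerase (DCT) had 708 and 732 CPM in Hs 936.T and 0.980 and 0.198 CPM in A375, a log2 difference of 10.36 ± 0.38 (SE, adjusted p = 8.31e-09). All 3 enzymes were at 3 CPM or less in each A375 library and above 700 CPM in each Hs 936.T library.

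Melanosomal transporters followed the enzymes. SLC45A2 had 1729.8 and 1726 CPM in Hs 936.T and 3.27 and 0.791 CPM in A375 (9.92 ± 0.46 in log2 ± SE), and the ion exchanger SLC24A5 had 1276 and 1301 CPM in Hs 936.T and 1.31 and 0.988 CPM in A375 (10.11 ± 0.31). OCA2, a melanosomal chloride channel, had 175 and 179 CPM in Hs 936.T and 0 and 0.395 CPM in A375 and was 719 times as high in Hs 936.T (95% counting interval 199 to 5946, adjusted p = 1.59e-23). The melanosomal receptor GPR143 stood at 298 and 291 against 0.327 and 0.593 CPM (Hs 936.T against A375) and the melanocyte channel TRPM1 at 370.3 and 396 against 0.980 and 0.198 CPM. MC1R, the melanocortin receptor upstream of MITF, had 26 and 29.6 CPM in Hs 936.T and 0.980 and 0.395 CPM in A375, a log2 difference of 5.37 ± 0.39 (SE, adjusted p = 1.37e-15). Melanosome transport genes were higher in Hs 936.T as well: RAB27A had 501 and 499 against 7.19 and 7.31 CPM, MLPH 383 and 377 against 17.6 and 14.4 CPM and MYO5A, the motor that carries melanosomes on actin, 182 and 199.6 against 38.5 and 44.7 CPM. The smallest called differences towards Hs 936.T on the list included LEF1 (log2 1.63 ± 0.14) and ACP5 (log2 1.94 ± 0.13). The 3 genes that ran the other way were TFAP2B (1.40 and 1.29 against 48.7 and 83.2 CPM, log2 -5.60 ± 0.42), the protease CTSK (10.3 and 12.2 against 39.5 and 56.5 CPM, log2 -2.13 ± 0.20) and the amino acid transporter SLC7A5 (328 and 320.1 against 620.0 and 526 CPM, log2 -0.82 ± 0.09).

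**Figure D1:**
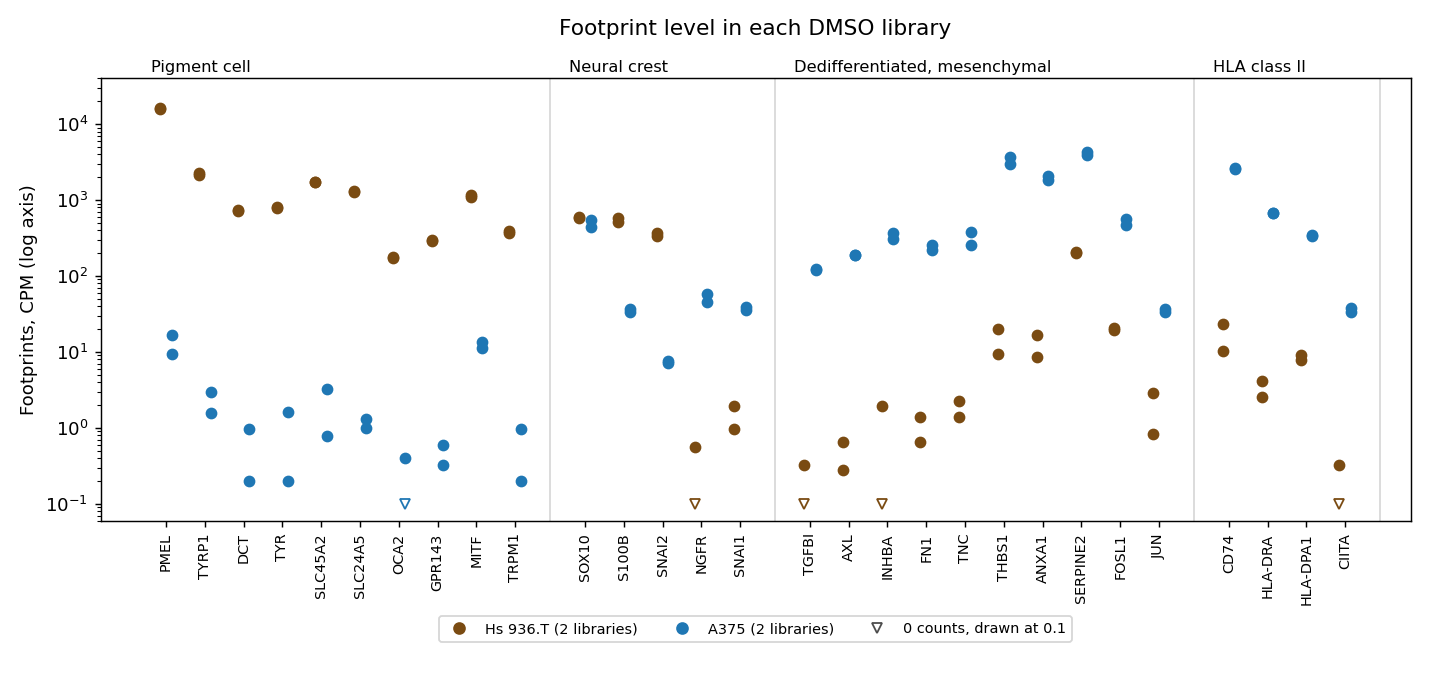
Footprint level in CPM (log axis) of 29 genes in each DMSO library, brown for Hs 936.T and blue for A375, with open triangles for 0 counts drawn at 0.1. The 10 pigment genes lie above 100 CPM in both Hs 936.T libraries and below 20 CPM in both A375 libraries. The 10 mesenchymal genes and the 4 of the HLA class II group, CD74 and CIITA among them, lie higher in A375, not all across these limits. SOX10 lies between 448 and 594 CPM in all 4 libraries.

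MITF and its relatives TFEB and TFE3 are known to bind short E-box motifs, MITF at TCATGTG in pigment gene promoters and the family at TCACGTG in lysosomal ones. Promoter windows of 300 bases (250 before and 50 after the start, RefSeq, GRCh38.p14) were searched for these letters on both strands, where they read CACATGA and CACGTGA. Stretches from 6 of the listed pigment genes whose windows held TCATGTG are shown, those of the 3 enzymes of melanin synthesis, the transporter SLC24A5, the receptor GPR143 and the transcription factor TFAP2B. The match is in capitals, read 5′ to 3′ on the gene's strand.
TYR, chr11:89177759-89177788, plus strand: agaaaagtcagTCATGTGcttttcagagga
TYRP1, chr9:12693229-12693258, plus strand: ttggaagggaaTCATGTGctgatcaagtcc
DCT, chr13:94479799-94479828, minus strand: tgcactttgggTCATGTGctaatgatgagg
SLC24A5, chr15:48120964-48120993, plus strand: aggagactcctCACATGAtccagtttaatc
GPR143, chrX:9765862-9765891, minus strand: agcccgcccagCACATGAcccaggcaggcc
TFAP2B, chr6:50818874-50818903, plus strand: catctgctcctCACATGAatgcactcacct
TCATGTG was found in 10 of the 50 windows of listed pigment genes (20%) and in 1026 of all 35116 windows (2.92%). The 50 windows belong to 30 of the 39 genes, and PMEL and SLC45A2 are among those without one. TFAP2B is shown because it holds the match and was higher in A375. Over the 9251 tested genes with a window, 258 held TCATGTG, and of these 103 (39.9%) were higher in Hs 936.T and 68 (26.4%) higher in A375, against 31.2% and 33.2% of the 8993 without it. A match is a description of the sequence, and binding was not measured.

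Melanosomes are relatives of lysosomes and share much of their machinery. Of 42 tested melanosome and lysosome genes 31 were higher in Hs 936.T and 2 in A375 (73.8% and 4.8%, against 31.3% and 32.8% of all tested genes). The count towards A375 was 1 without replicate 1 of Hs 936.T, and the median log2 difference was 1.07. Cathepsin B (CTSB) had 4277 and 4564 CPM in Hs 936.T and 197 and 199.8 CPM in A375, a log2 difference of 4.48 ± 0.35 (SE, adjusted p = 0.000318). Cathepsin L (CTSL) had 1304 and 1324 against 241 and 222 CPM and prosaposin (PSAP), the precursor of the sphingolipid activators, 2769 and 2821 against 662 and 672 CPM. LYST, the gene of Chediak-Higashi syndrome, had 198 and 176 against 14.4 and 13.2 CPM (log2 3.77 ± 0.14). Subunits of the HPS complexes, which sort cargo to melanosomes, differed among themselves: HPS4 had a log2 difference of 4.01 ± 0.17 and HPS3 one of 2.32 ± 0.16, whereas HPS5 had -0.31 (95% interval -0.61 to 0.00, adjusted p = 0.075) and was called without replicate 1 of A375 (adjusted p = 0.0192) or replicate 2 of Hs 936.T (adjusted p = 0.0481). The proton pump subunit ATP6V1B2 had 447 and 427 against 87.9 and 73.1 CPM. TFE3, one of the transcription factors of lysosomal genes, was the member highest towards A375, with 8.66 and 9.96 CPM in Hs 936.T and 28.1 and 28.9 CPM in A375 (log2 -1.62 ± 0.21).

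TCACGTG was found in 10 of 48 windows of listed melanosome and lysosome genes (20.8%), in 0 of the 50 pigment windows and in 1303 of all 35116 (3.71%). The stretches below are from genes called higher in Hs 936.T, among them LAMP1, whose window held the most matches on the list.
HPS3, chr3:149129596-149129625, plus strand: ccggctggcgtTCACGTGacccggcgtcat
CTSD, chr11:1763956-1763985, minus strand: ccggccgcgccCACGTGAccggtccgggtg
ATP6V0D1, chr16:67481199-67481228, minus strand: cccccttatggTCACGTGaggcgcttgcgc
LAMP1, chr13:113297199-113297228, plus strand: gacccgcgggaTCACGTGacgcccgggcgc
Where the letters run TCACGTGA, the match on one strand overlaps the match on the other. CTSD, the aspartic protease of lysosomes, had 1042 and 1018 against 284 and 298 CPM, and the membrane protein LAMP1 465 and 478 against 369 and 355 CPM (log2 0.38 ± 0.08). Among the 9251 tested genes with a window, 693 held TCACGTG, and 41.1% of them were higher in Hs 936.T and 27.0% in A375. The shares were 30.6% and 33.5% of the 8558 without it.

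Neural crest genes did not move as a block: of 18 tested, 7 were higher in Hs 936.T and 6 in A375 (38.9% and 33.3%, against 31.3% and 32.8% of all tested genes). Their median was -0.19, and its sign turned, to 0.11, with genes at 0 counts held at their bound. SOX10, the lineage factor of melanocytes and Schwann cells, had 594 and 585 CPM in Hs 936.T and 448 and 554 CPM in A375 and was not called, with a log2 difference of 0.23 (95% interval 0.02 to 0.44, adjusted p = 0.0534). It passed the threshold in 6 of 14 alternatives, at adjusted p from 0.00146 without replicate 2 of A375 (log2 0.39) to 0.0476 with libraries thinned to one depth. Without the NCI-H520 libraries its adjusted p was 0.0147. SNAI2, a zinc finger factor of melanocyte development, had 367 and 333 CPM in Hs 936.T and 7.19 and 7.51 CPM in A375, a log2 difference of 5.56 ± 0.18 (SE, adjusted p = 3.51e-20). Its relative SNAI1 ran the other way, with 1.96 and 0.964 CPM in Hs 936.T and 35.9 and 39.3 CPM in A375, a log2 difference of -4.62 ± 0.30 (SE, adjusted p = 3.3e-17). The same opposition held for the zinc finger pair ZEB2 (151 and 144 against 13.1 and 12.6 CPM, log2 3.52 ± 0.14) and ZEB1 (11.2 and 9.64 against 36.6 and 41.9 CPM, log2 -1.92 ± 0.20), which are known to mark the pigmented and dedifferentiated ends of melanoma. The calcium-binding protein S100B, a clinical melanoma marker, had 584 and 513 against 33.6 and 36.8 CPM. NGFR, the low-affinity nerve growth factor receptor, had 0.559 and 0 CPM in Hs 936.T and 58.8 and 45.9 CPM in A375 and was 169.7 times as high in A375 (95% counting interval 46.7 to 1406, adjusted p = 1.74e-19). PAX3 had 52.8 and 51.1 against 8.49 and 13.0 CPM and ERBB3, a receptor of neuregulin, 52.0 and 43.1 against 95.7 and 134 CPM.

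Genes of the dedifferentiated, mesenchymal state were higher in A375: of 45 tested, 39 were higher in A375 and 3 in Hs 936.T (86.7% and 6.7%, against 32.8% and 31.3% of all tested genes). Among the 39, 38 differed at least 2-fold. The median log2 difference of the 45 was -4.29, or -3.78 with genes at 0 counts held at their bound. The receptor tyrosine kinase AXL had 0.279 and 0.643 CPM in Hs 936.T and 192 and 187 CPM in A375 and was 422 times as high in A375 (95% counting interval 144 to 2046, adjusted p = 8.58e-28). TGFBI, a secreted matrix protein induced by TGF-beta, had 0 and 0.321 CPM in Hs 936.T and 125 and 121 CPM in A375 and was 819 times as high in A375 (95% counting interval 147 to 32375, adjusted p = 7.41e-27). Thrombospondin 1 (THBS1) had 9.5 and 19.9 CPM in Hs 936.T and 3658 and 3019 CPM in A375, a log2 difference of -7.85 ± 0.19 (SE, adjusted p = 1.21e-13). Fibronectin (FN1) stood at 1.40 and 0.643 against 221 and 257 CPM and tenascin C (TNC) at 1.40 and 2.25 against 256 and 378 CPM. INHBA, the activin A subunit, had 0 and 1.93 against 310.3 and 371 CPM, and the annexin ANXA1 8.66 and 16.7 against 2048 and 1852 CPM. In all of these genes both A375 libraries lay above both Hs 936.T libraries.

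Within this group the AP-1 subunits FOSL1 and JUN were higher in A375, while FOS, an AP-1 subunit outside the list, was higher in Hs 936.T (log2 0.94 ± 0.29), a call lost without replicate 2 of Hs 936.T (adjusted p = 0.0916). FOSL1 had 19.3 and 20.6 CPM in Hs 936.T and 562 and 476 CPM in A375, a log2 difference of -4.70 ± 0.13 (SE, adjusted p = 5.57e-30), and JUN had 0.838 and 2.89 CPM in Hs 936.T and 33.6 and 36.6 CPM in A375, a log2 difference of -4.26 ± 0.31 (SE, adjusted p = 8.5e-16). The YAP and TEAD targets CCN1 (1.68 and 0.643 against 200.3 and 159 CPM) and CCN2 (45.3 and 41.1 against 185 and 162 CPM) were higher in A375 by unequal log2 differences of -7.16 ± 0.28 and -2.00 ± 0.13, while the factor TEAD1 itself was higher in Hs 936.T (36.6 and 44.0 against 19.6 and 26.7 CPM, log2 0.75 ± 0.17). N-cadherin (CDH2) had 14.8 and 13.5 against 142 and 159 CPM, and WNT5A, a non-canonical Wnt ligand of invasive melanoma, 0.838 and 3.86 against 88.5 and 83.0 CPM. Vimentin (VIM) was abundant in both lines, with 2309.9 and 2392 CPM in Hs 936.T and 5276 and 6089 CPM in A375 (log2 -1.27 ± 0.21). The other exceptions were the receptor MET (226 and 232 against 89.8 and 79.7 CPM, log2 1.44 ± 0.12) and caldesmon (CALD1, log2 1.5 ± 0.11), both higher in Hs 936.T. LOX and UCHL1 had no footprint in any of the 4 libraries. TGANTCA, the AP-1 motif, was found in 6 of 58 windows of these genes (10.3%) and in 7.71% of all windows. Among the 9251 tested genes with a window, 661 held it, and 31.8% of them were higher in Hs 936.T and 35.6% in A375. The shares were 31.4% and 32.8% of the 8590 without it.

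Extracellular matrix genes leaned to A375, with 27 of 36 tested higher there and 7 higher in Hs 936.T (median log2 -2.42, or -2.16 with zeros at their bound). These were 75% and 19.4% of the list, against 32.8% and 31.3% of all tested genes. Collagens took part with unequal sizes: COL4A1 of basement membranes had 40.2 and 42.7 against 207 and 307 CPM, COL5A2 0 and 1.29 against 107 and 125 CPM, and COL5A1, without a footprint in Hs 936.T, was at least 25.8-fold higher in A375 (adjusted p = 3.57e-12). The gelatinase MMP2 had 0.838 and 0.321 CPM in Hs 936.T and 143 and 148 CPM in A375, a log2 difference of -7.81 ± 0.28 (SE, adjusted p = 3.04e-26), and the inhibitor TIMP1 125 and 138 against 1248 and 1316 CPM. Fibulin 1 (FBLN1) had the largest difference towards Hs 936.T on the list, with 45.5 and 49.2 CPM in Hs 936.T and 2.94 and 4.94 CPM in A375 (log2 3.49 ± 0.22). The membrane protease MMP14 had 495 and 477 against 173 and 206 CPM and laminin beta 2 (LAMB2) 152 and 162 against 56.2 and 72.9 CPM, both higher in Hs 936.T. Lumican (LUM), a proteoglycan on the list of fibroblast markers, also stood higher in Hs 936.T (156 and 138 against 2.61 and 3.56 CPM). COL1A1, a defining fibroblast gene, had 0 and 0 against 0.980 and 0.988 CPM. The summed level of the 12 fibroblast and pericyte markers was 232 and 217 CPM in Hs 936.T and 102 and 112 CPM in A375, of which LUM made up most in Hs 936.T. The other 11 summed to 75.5 and 78.7 CPM in Hs 936.T and 99.3 and 109 CPM in A375, so that the order of the lines turned without LUM. Only 3 of the 12 were tested, 1 higher in Hs 936.T and 2 in A375, and the part of these markers in the matrix results was not tested.

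Of 33 integrins and adhesion receptors, 12 were higher in Hs 936.T and 20 in A375 (36.4% and 60.6%, against 31.3% and 32.8% of all tested genes). Integrin beta 3 (ITGB3), known from vertical-growth melanoma, had 6.15 and 6.75 CPM in Hs 936.T and 260.0 and 326 CPM in A375, a log2 difference of -5.51 ± 0.17 (SE, adjusted p = 5.16e-27). Integrin alpha 5 (ITGA5), the fibronectin receptor subunit, had 0.838 and 3.86 against 172 and 188 CPM, and integrin alpha 4 (ITGA4) was 286 times as high in A375 (95% counting interval 51.0 to 11323, adjusted p = 8.85e-20). MCAM, the melanoma cell adhesion molecule, had 10.6 and 8.68 against 189 and 208 CPM, and the tetraspanin CD9 29.1 and 24.4 against 316 and 313 CPM. Towards Hs 936.T, CEACAM1 had 82.4 and 78.1 CPM in Hs 936.T and 1.96 and 1.19 CPM in A375, a log2 difference of 5.71 ± 0.24 (SE, adjusted p = 1.42e-23). The tetraspanin CD63, an abundant melanosome and lysosome protein, had 3130.1 and 3071 against 641 and 590.4 CPM, and integrin alpha V (ITGAV) 212 and 199 against 71.5 and 84.2 CPM. Integrin beta 1 (ITGB1), the common partner of many alpha chains, differed little, at 362 and 349 against 425 and 434 CPM (log2 -0.27 ± 0.08), and lost its call without replicate 2 of Hs 936.T (adjusted p = 0.0583).

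The RAS to ERK pathway and its feedback genes had 12 of 35 members higher in Hs 936.T and 15 in A375 (34.3% and 42.9%, against 31.3% and 32.8% of all tested genes), with a median of -0.15. MYC had 236 and 247 CPM in Hs 936.T and 24.2 and 27.9 CPM in A375, a log2 difference of 3.19 ± 0.12 (SE, adjusted p = 4.89e-25). The ETS factor ETV5 had 604 and 619 against 71.9 and 91.3 CPM (log2 2.88 ± 0.10), and the nuclear phosphatase DUSP4 404 and 446 against 118 and 129 CPM (log2 1.78 ± 0.11). Its cytoplasmic relative DUSP6, a feedback phosphatase of ERK, was higher in A375, with 67.3 and 54.6 CPM in Hs 936.T and 223 and 265 CPM in A375, a log2 difference of -2.00 ± 0.12 (SE, adjusted p = 8.03e-17). EPHA2 and IER3, both induced through ERK, also stood higher in A375, at 18.4 and 20.9 against 204 and 178 CPM and 52.3 and 68.1 against 321 and 355 CPM. Of the PI3K and MTOR pathway genes 7 of 19 were higher in Hs 936.T and 4 in A375 (36.8% and 21.1%), with PIK3R1, the regulatory subunit of PI3K, at 57.0 and 70.1 against 11.8 and 16.4 CPM.

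Among genes of p16, RB and apoptosis, 8 of 27 tested were higher in Hs 936.T and 12 in A375 (29.6% and 44.4%, against 31.3% and 32.8% of all tested genes). CDKN2A (chr9:21967753-21995301, GRCh38), which encodes the CDK4 and CDK6 inhibitor p16, had 125 and 130.5 CPM in Hs 936.T and 1.31 and 2.17 CPM in A375, a log2 difference of 6.07 ± 0.21 (SE, adjusted p = 2.75e-26). Its neighbour MTAP ran the other way, with 117 and 112 CPM in Hs 936.T and 421 and 435 CPM in A375, a log2 difference of -1.90 ± 0.10 (SE, adjusted p = 5.86e-20). GDF15, a stress-induced cytokine, had 2301 and 2402 against 86.9 and 57.5 CPM (log2 5.06 ± 0.41). CDK6, a partner of cyclin D, had 40.2 and 38.6 against 119.6 and 98.6 CPM and was higher in A375. CDK2 had 1095 and 1096 CPM in Hs 936.T and 125 and 111 CPM in A375, a log2 difference of 3.22 ± 0.10 (SE, adjusted p = 1.56e-28). CDK2 lies at chr12:55966769-55972784 within the annotated span of PMEL (chr12:55954105-55973317) on the opposite strand. Coding parts of the pair do not overlap in GENCODE 29.

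Of 23 tested antigen presentation genes 7 were higher in Hs 936.T, 7 were higher in A375 and 9 were not called, with the largest differences in HLA class II. The 7 in each direction are 30.4% of the list, against 31.3% and 32.8% of all tested genes. The class II chain HLA-DRA had 2.52 and 4.18 CPM in Hs 936.T and 667 and 667 CPM in A375, a log2 difference of -7.64 ± 0.16 (SE, adjusted p = 5.62e-33). CD74, the invariant chain that guards the class II groove, had 10.3 and 23.5 CPM in Hs 936.T and 2543 and 2677 CPM in A375, a log2 difference of -7.30 ± 0.23 (SE, adjusted p = 1.19e-08). CIITA, the transcriptional activator of class II genes, had 0 and 0.321 CPM in Hs 936.T and 33.3 and 37.4 CPM in A375 and was 239.7 times as high in A375 (95% counting interval 42.7 to 9501, adjusted p = 9.81e-18). Of 8 tested genes whose symbols start HLA-D, 7 were higher in A375 and 0 in Hs 936.T. Class I differed less: HLA-B had 300.1 and 307 against 389 and 412 CPM (log2 -0.40 ± 0.10, not called over summed transcript entries at an adjusted p of 0.140), and HLA-C, not called, had a log2 difference of 0.05 (95% interval -0.13 to 0.23, adjusted p = 0.653). B2M, the class I light chain, had 1469.6 and 1522 against 931 and 954 CPM (log2 0.67 ± 0.09). HLA genes are near-identical in parts, so the split of reads between them is uncertain.

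Interferon-response genes had 10 of 28 members higher in Hs 936.T and 5 higher in A375 (35.7% and 17.9%, against 31.3% and 32.8% of all tested genes). BST2, the virus-tethering membrane protein, had 212 and 223 CPM in Hs 936.T and 0.327 and 1.38 CPM in A375, a log2 difference of 7.71 ± 0.46 (SE, adjusted p = 4.52e-06). IFI16, a DNA sensor, had 1472 and 1377 against 125 and 135 CPM. MX1 (0.838 and 2.25 against 12.1 and 10.1 CPM) and MX2 (6.71 and 5.79 against 26.5 and 22.1 CPM), antiviral GTPases, were higher in A375, and ISG15 was not called (9.78 and 8.68 against 9.80 and 9.29 CPM). Cancer-testis antigens, normally made in germ cells, were 4 of 14 higher in Hs 936.T and 5 in A375, 28.6% and 35.7% and so near the shares of all tested genes. MAGEA4 had 4.75 and 8.04 CPM in Hs 936.T and 1090.4 and 1129 CPM in A375, a log2 difference of -7.45 ± 0.48 (SE, adjusted p = 0.000147), and PRAME 8.38 and 10.9 against 124 and 136 CPM. MAGEA3 was not called, with 243 and 268 against 229.7 and 234 CPM, and MAGE family members resemble each other closely, so their counts are uncertain.

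Of 27 tested cholesterol and lipid synthesis genes, 21 were higher in Hs 936.T and 2 in A375 (77.8% and 7.4%, against 31.3% and 32.8% of all tested genes). The count towards A375 was 1 without replicate 1 of either line, and the median log2 difference was 0.99. The desaturase SCD had 534 and 607 against 107 and 111 CPM and the regulator SREBF2 91.4 and 128 against 23.8 and 37.4 CPM. HSD17B7, a reductase of the late pathway, was the main exception, with 0.559 and 0.643 CPM in Hs 936.T and 20.3 and 19.96 CPM in A375 (log2 -4.95 ± 0.41).

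Oxidative phosphorylation genes had 23 of 34 members higher in Hs 936.T and 6 in A375 (67.6% and 17.6%, against 31.3% and 32.8% of all tested genes). The count towards A375 was 3 without replicate 1 of either line, and the median log2 difference was 0.40. PPARGC1A, the coactivator PGC-1 alpha that drives mitochondrial biogenesis and is a known MITF target, had 152 and 147 CPM in Hs 936.T and 0.327 and 0.395 CPM in A375 and was 405 times as high in Hs 936.T (95% counting interval 138 to 1965, adjusted p = 3.53e-27). Complex subunits differed far less, with ATP5PO at 709.8 and 706 against 237 and 231 CPM (log2 1.60 ± 0.10) and NDUFC2 towards A375 at 148 and 155 against 279 and 254 CPM (log2 -0.81 ± 0.09). Glycolysis genes were 11 of 25 higher in Hs 936.T and 9 in A375 (44% and 36%, against 31.3% and 32.8% of all tested genes). Their median log2 difference was -0.16, and 2 in each direction were called at 2-fold or more, against 16.1% and 18.4% of all tested genes. The glucose transporter SLC2A1 had 44.7 and 53 CPM in Hs 936.T and 355 and 338 CPM in A375, a log2 difference of -2.83 ± 0.11 (SE, adjusted p = 8.68e-25), and the lactate exporter SLC16A3 was 112 times as high in A375 (95% counting interval 19.8 to 4457, adjusted p = 7.39e-14). In the RocA libraries 11 of 24 tested glycolysis genes were higher in Hs 936.T and 2 in A375, against 20.5% of all genes tested there in each direction.

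Serine, one-carbon and amino acid stress genes leaned to A375, with 23 of 30 higher there and 3 in Hs 936.T (median log2 -0.66). These were 76.7% and 10% of the list, against 32.8% and 31.3% of all tested genes. PSAT1 of serine synthesis had 91.4 and 89.7 CPM in Hs 936.T and 487 and 412 CPM in A375 (log2 -2.31 ± 0.10), and asparagine synthetase (ASNS) 124 and 121 against 321 and 264 CPM (log2 -1.25 ± 0.11). ATF4, the factor that induces many of these genes, had 22.4 and 19.9 against 33.0 and 39.3 CPM (log2 -0.79 ± 0.17). The neutral amino acid transporter SLC1A4 was the clearest exception, at 593 and 627 against 90.8 and 111 CPM (log2 2.58 ± 0.14).

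The RocA targets and their partners differed modestly. EIF4A1, the main eIF4A helicase, had 2209 and 2191 CPM in Hs 936.T and 4351 and 4162 CPM in A375, a log2 difference of -0.95 ± 0.07 (SE, adjusted p = 2.68e-15). The helicase DDX3X was not called, with 689 and 675 CPM in Hs 936.T and 787 and 619 CPM in A375 and a log2 difference of -0.04 (95% interval -0.36 to 0.29, adjusted p = 0.848). EIF4G1, the scaffold that binds eIF4A, had 665 and 663 against 313 and 305 CPM (log2 1.11 ± 0.08), and PDCD4, an inhibitor of eIF4A, 95.3 and 92.6 against 135 and 160.3 CPM (log2 -0.66 ± 0.11). Of 71 cytosolic ribosomal protein genes, 43 were higher in A375 and 8 in Hs 936.T (60.6% and 11.3%, against 32.8% and 31.3% of all tested genes). The median log2 difference of the 71 was -0.25. RPS25 marked one end (819.6 and 816 against 1989 and 1905 CPM, log2 -1.25 ± 0.08) and RPL31 the other (2174 and 2102 against 1437 and 1345 CPM, log2 0.62 ± 0.07). S and M phase genes had 13 of 32 higher in Hs 936.T and 9 in A375 (40.6% and 28.1%, against 31.3% and 32.8% of all tested genes). MCM2 had 76.3 and 77.1 against 272 and 266 CPM while MCM6, a partner in the same replicative helicase, had 357 and 332 against 149 and 152 CPM.

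**Figure D2:**
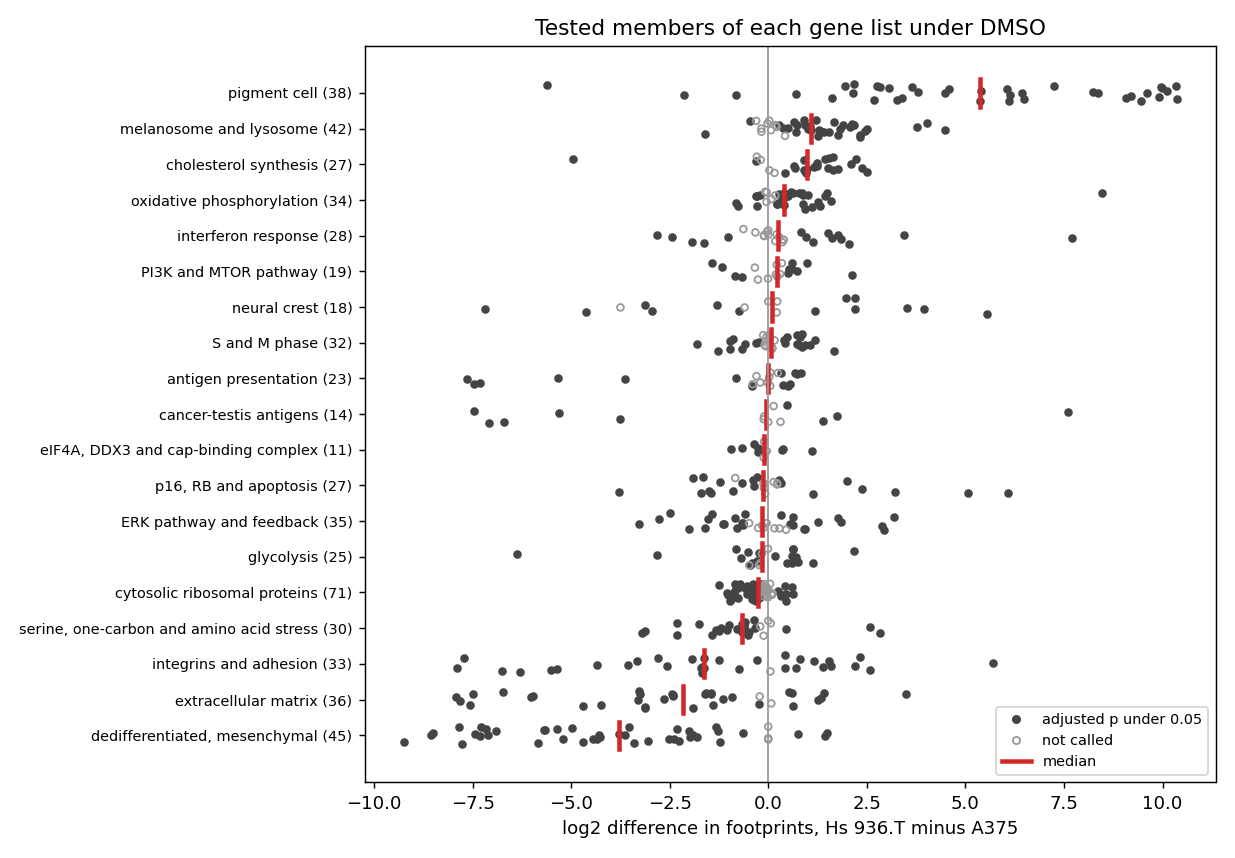
Log2 difference (Hs 936.T minus A375, DMSO libraries) of each tested member of 19 gene lists, with the number tested in parentheses, filled points for called genes, open points for genes not called and red bars for medians. Genes with 0 counts in a line are drawn at their bound, the pigment list lies furthest right with a median of 5.38 and the mesenchymal list furthest left at -3.78.

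Called genes were spread unevenly over the chromosomes. On chromosome 11, 58.8% of 639 tested genes were higher in A375 and 13.9% higher in Hs 936.T, with a median log2 difference of -0.67. Chromosome 19 was similar, at 55.5% and 11.1% of 794 genes (median -0.60). Chromosome 2 ran the other way, with 56.8% of 776 genes higher in Hs 936.T and 14.2% in A375 (median 0.60). Chromosomes 21 and 22 had medians of 0.56 and 0.57. The shares over all tested genes were 31.3% and 32.8%. DNA copy number was not measured.

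**Figure D3:**
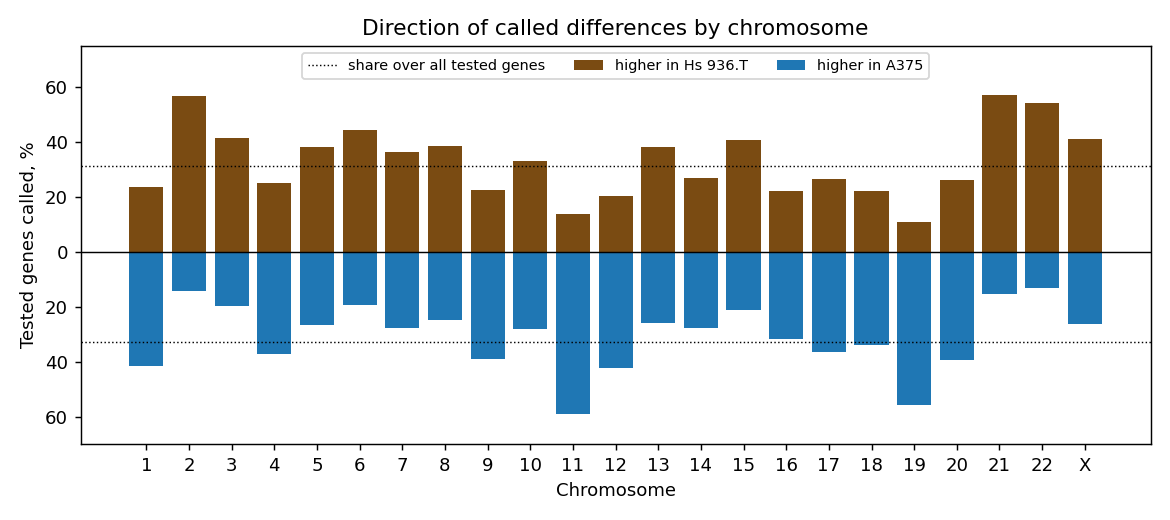
Share of tested genes called (%, adjusted p under 0.05) on each chromosome, upward bars for genes higher in Hs 936.T, downward bars for genes higher in A375 and dotted lines for the shares over all tested genes. Chromosomes 2, 21 and 22 reach above 50% upwards, and 11 and 19 above 50% downwards.

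Runs of 20 neighbouring tested genes showed where such differences gathered. The lowest and highest runs were picked by their median, so the counts of genes called in that direction follow in part from the choice. The lowest median, -4.04 (-3.70 with zeros at their bound), lay at chr5:140664676-141186399 in the clustered protocadherins, adhesion molecules of neurons and neural crest cells. All 10 protocadherin alpha and all 6 protocadherin beta genes of the run were higher in A375, while their neighbours HARS2 and ZMAT2 were not called. PCDHB16 had 1.96 and 1.93 CPM in Hs 936.T and 28.7 and 30.8 CPM in A375 (log2 -3.91 ± 0.30), and PCDHA5 was at least 25.8-fold higher in A375 (adjusted p = 3.58e-11). Protocadherin alpha genes share their last exons, so their reads cannot be split with certainty. Over the whole cluster, the summed level of 11 tested beta genes was 21.2 and 20.9 CPM in Hs 936.T and 201 and 210.3 CPM in A375. Of 9 tested gamma genes, 7 were higher in A375 and 0 in Hs 936.T, against 32.8% and 31.3% of all tested genes. Whether the gamma entries share reads was not tested, so the 7 may not be separate observations.

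The second run lay at chr12:51351247-52952901 in the type II keratins, with 16 of 20 genes higher in A375 and 1 in Hs 936.T (median -3.40, or -2.41 with zeros at their bound). KRT18, a simple-epithelial keratin, had 1.68 and 3.21 CPM in Hs 936.T and 338 and 334 CPM in A375, a log2 difference of -7.10 ± 0.17 (SE, adjusted p = 7.64e-32). Its partner KRT8 had 0.279 and 0 CPM in Hs 936.T and 11.1 and 10.5 CPM in A375 and was 71.7 times as high in A375 (95% counting interval 12.5 to 2863, adjusted p = 1.34e-12), and annotated coding parts of the pair overlap on opposite strands. KRT80 had 0 and 0.321 CPM in Hs 936.T and 70.9 and 54.0 CPM in A375, 404 times as high in A375 (95% counting interval 72.1 to 15976, adjusted p = 7.94e-10). The hair keratins KRT81 (7.82 and 9.64 against 125 and 121 CPM), KRT86 (7.82 and 8.68 against 61.4 and 61.7 CPM) and KRT83 (7.55 and 9.0 against 47.0 and 51.2 CPM) are close paralogs and their split is uncertain. Of 13 tested keratins of chromosome 12, 12 were higher in A375, against 3 of 9 on other chromosomes. Of 15 tested keratinocyte and epithelial markers, which include keratins, 7 were higher in A375 and 4 in Hs 936.T. These were 46.7% and 26.7%, against 32.8% and 31.3% of all tested genes. The 16 listed summed to 81.6 and 72.6 CPM in Hs 936.T and 398 and 387 CPM in A375. The part of other cells in these values was not tested. Towards Hs 936.T, and chosen after its values were seen, ESRP1, a splicing factor of epithelia, had 31.0 and 23.1 CPM in Hs 936.T and 0.327 and 0 CPM in A375 and was 222 times as high in Hs 936.T (95% counting interval 39.4 to 8821, adjusted p = 1.52e-17), and EPCAM had 6.15 and 4.18 against 0 and 0 CPM. KRT19, CLDN7 and GRHL2 had no footprint in any of the 4 libraries.

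The third run lay at chr19:19710471-22667670 and held 20 zinc finger genes, of which 16 were higher in A375 and 0 in Hs 936.T (median -2.42). With 1 library of either line left out the median ran from -3.58 to -2.98, and with a minimum count of 30 it was -0.84. ZNF506 had 0.838 and 0.321 CPM in Hs 936.T and 11.8 and 19.2 CPM in A375 (log2 -4.63 ± 0.48) and ZNF738 11.5 and 8.36 CPM in Hs 936.T and 21.9 and 20.2 CPM in A375 (log2 -1.06 ± 0.24). Over chromosome 19, 101 of 181 tested zinc finger genes were higher in A375 and 5 in Hs 936.T (median -0.81). Of the other 613 tested genes of chromosome 19, 340 were higher in A375 and 83 in Hs 936.T (median -0.53). Over the whole chromosome 55.5% of tested genes were higher in A375 and 11.1% in Hs 936.T, against 32.8% and 31.3% of all tested genes. Outside chromosome 19, 42 of 211 zinc finger genes of these names were higher in A375 and 53 in Hs 936.T (median 0.04). The zinc finger genes are paralogs with low counts.

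The 3 highest runs were less extreme. Of all tested genes 31.3% were higher in Hs 936.T and 32.8% in A375. By chromosome, the shares higher in Hs 936.T were 56.8% on chromosome 2, 38.6% on chromosome 8 and 54.2% on chromosome 22. At chr2:162318884-170861151, 16 of 20 genes were higher in Hs 936.T and 0 in A375 (median 1.72). They included the RNA-binding protein SSB (435 and 384 against 126 and 129.7 CPM), the kinase STK39 (60.1 and 51.1 against 8.82 and 11.7 CPM) and the endocytic receptor LRP2, which was at least 67.6-fold higher in Hs 936.T (adjusted p = 3.87e-16). Annotated coding parts of SSB overlap those of METTL5 on the opposite strand. At chr8:489792-12755490, 15 were higher in Hs 936.T and 0 in A375 (median 1.63), CTSB and PINX1 (214 and 231 against 19.9 and 17.4 CPM) among them. At chr22:42796502-46250679, 15 were higher in Hs 936.T and 2 in A375 (median 1.48), led by FBLN1, SAMM50 (552 and 576 against 124 and 115 CPM) and PARVB (127 and 125 against 28.1 and 30.4 CPM).

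**Figure D4:**
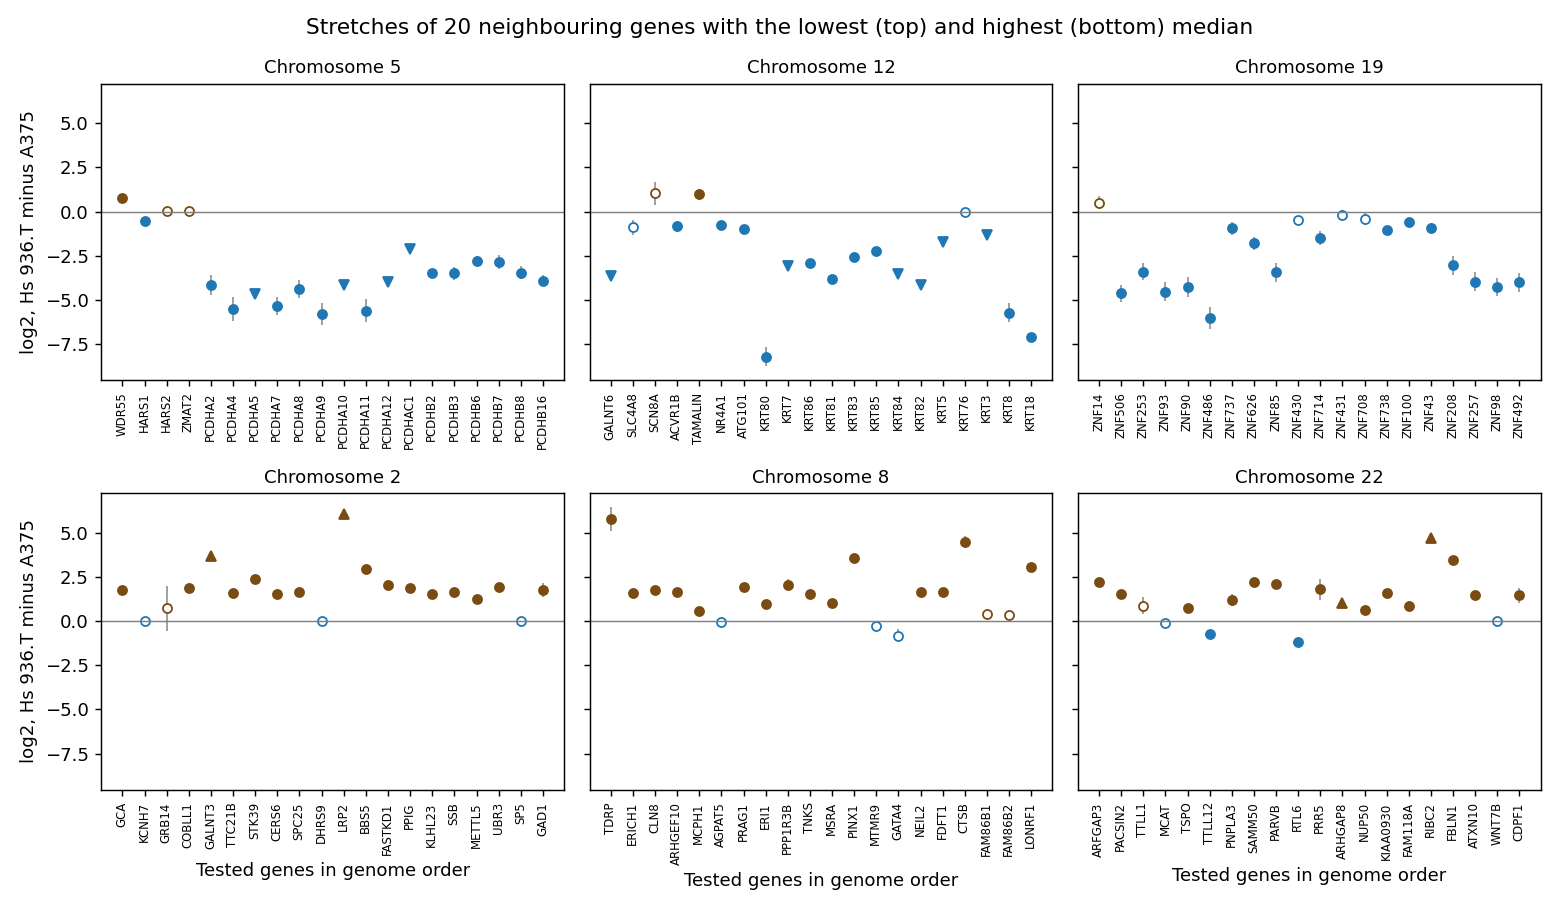
Log2 difference (Hs 936.T minus A375) of the 20 genes in each of the 3 lowest (top) and 3 highest (bottom) runs in genome order, with SE bars, filled points for called genes, triangles for genes with 0 counts in a line at their bound and points at 0 for genes at or under 3 counts in both. The protocadherins, keratins and zinc fingers lie below 0, and most genes of the chromosome 2, 8 and 22 runs lie above it.

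The same contrast was fitted on the RocA libraries, which share no library with the DMSO fit and hold 1 library per line and dose. After a shared dose term, the doses of a line stood as its replicates. The SE and p-values from these libraries therefore measure no spread between libraries of the same line and dose. Of 6699 genes tested there, 1376 were higher in Hs 936.T (20.5%) and 1375 in A375 (20.5%), 41.1% in all. Of 4692 genes called under DMSO and tested with RocA, 4400 (93.8%) had the same direction, and of 2626 called in both, 2613 did (99.5%). PMEL had 30505 and 15006 CPM in Hs 936.T at 0.3 and 3 µM and 72.6 and 71.5 CPM in A375, a log2 difference of 8.27 ± 0.28 (SE, adjusted p = 1.01e-54). AXL had 1.24 and 0 CPM in Hs 936.T and 270.1 and 242 CPM in A375. All 33 pigment genes tested with RocA kept the direction they had under DMSO, and 29 were called higher in Hs 936.T and 2 higher in A375. Among the mesenchymal genes 32 of 37 were called higher in A375 and 2 in Hs 936.T.

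**Figure D5:**
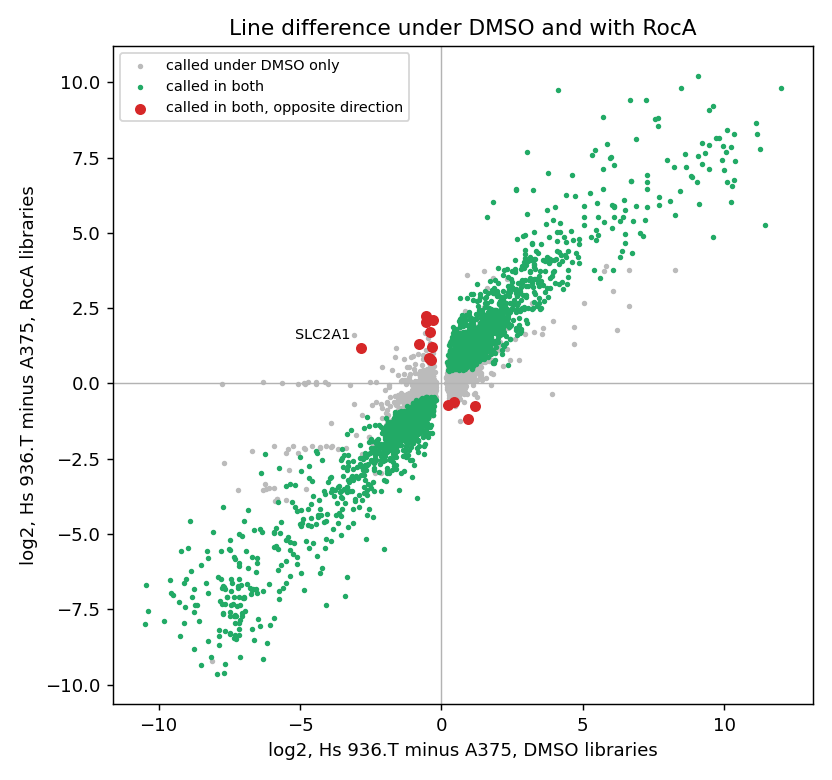
Log2 difference (Hs 936.T minus A375) in the DMSO libraries (x axis) and the RocA libraries (y axis) for the 4692 genes called under DMSO and tested in both, green where called in both and red for the 13 called in opposite directions. Points gather along the diagonal, and SLC2A1 lies at -2.83 and 1.17.

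Some of the genes that set the melanoma lines apart were shared with a lung line. KRT18 had 3566 and 4027 CPM in NCI-H1650 under DMSO, above its level in A375. TGFBI had 766 and 714 CPM there, and FN1 213 and 143 CPM, below both A375 libraries. HLA-DRA stayed at 12.3 and 17.9 CPM in NCI-H1650 and at 0 in both NCI-H520 libraries. SOX10 had 5.13 and 5.28 CPM in NCI-H1650, far below both melanoma lines.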

How the data were processed

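Ribosome footprints of 4 cell lines were sequenced, 16 libraries in all, and the authors deposited 1 table per library with whole-number read counts per transcript entry, with no gene names. CASAVA 1.8, Bowtie2 2.1.0, TopHat2 2.0.9 and the hg38 build are named in the submitters' processing notes, and the annotation release they counted on was not given in the sources used here. Each table holds 182398 entries, 93916 of them with a coding length. Entries were named by aligning the order of their transcript and coding lengths to GENCODE 29, which placed 81730 (87.0%). From these, 3892 with more than one possible gene and 612 readthrough entries were then left out. A gene took its entry with the most reads over the 16 libraries, which named 17334 of 20389 coding genes. A stricter match by a gene's own lengths held for 8402 of the 11276 tested genes, and 51 of the 192 genes followed through the alternatives, TYR, SOX10, PYCARD, JUN, SNAI2 and HLA-DRA among them, carry only the looser one.

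Counts of 8 DMSO libraries of the 4 lines were fitted with edgeR 4.0.16 in R 4.3.3 (TMM scaling, filterByExpr with a minimum count of 10, robust quasi-likelihood test, Benjamini-Hochberg adjusted p under 0.05), and those of the 8 RocA libraries with terms for line and dose. The melanoma DMSO libraries held 3059198 to 4951364 named reads and the melanoma RocA libraries 429991 to 867181. The test was tested on simulated data. Alternatives used DESeq2 1.42.0, other filters and samples, a replicate block, summed entries and thinning to the smallest total. Named genes were the 20 largest called differences per direction with at least 10 CPM and no overlap of libraries, list members with the largest called differences or a textbook role, and the runs of 20 neighbouring genes. LUM, ESRP1 and other genes outside this rule were chosen after their values were seen. Members and lists were chosen with earlier results of these data known. Genes of chromosome Y and XIST were left out, and a few list members are not reported here.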

Additional observations from a re-analysis of the deposited data

Results flagged for a closer look

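For 13 genes called under both treatments the line difference had opposite directions in the DMSO and RocA libraries, and for 10 of these a term for the change of the line difference with RocA, fitted over the 8 libraries of both melanoma lines, also passed an adjusted p under 0.05 (edgeR). This test was added after the data were seen, and it rests on 1 library per line and dose. SLC2A1, the glucose transporter, moved most: it had 44.7 and 53 CPM in Hs 936.T and 355 and 338 CPM in A375 under DMSO, and 88.4 and 27.5 CPM in Hs 936.T and 18.1 and 36.9 CPM in A375 at 0.3 and 3 µM. Its log2 difference between the lines was -2.83 with DMSO and 1.17 with RocA (adjusted p of the change 7.89e-06). At 3 µM the order of the lines differed from that at 0.3 µM.

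The others that were higher in A375 with DMSO and in Hs 936.T with RocA had these log2 differences with RocA. UBE2D3, a ubiquitin-conjugating enzyme, had 2.23 (DMSO -0.54), and GNB1, a G protein beta subunit, 2.11 (DMSO -0.29). ATP2B4, a calcium pump, had 1.72 (DMSO -0.38), and TAF7, a subunit of the transcription factor TFIID, 1.32 (DMSO -0.79). ACTA2 had 1.22 (DMSO -0.34), PPFIBP1 0.86 (DMSO -0.45) and the glutamine transporter SLC1A5 0.78 (DMSO -0.35). Running the other way, the early response gene FOS had -1.18 (DMSO 0.94) and the centromere protein CENPF -0.62 (DMSO 0.47). Some of the DMSO calls among these genes were lost when 1 library was left out: without replicate 1 of Hs 936.T those of ACTA2, ATP2B4 and GNB1 (adjusted p = 0.101, 0.288 and 0.219), without replicate 2 of A375 those of ACTA2 and ATP2B4 (adjusted p = 0.0796 and 0.0735), and without replicate 2 of Hs 936.T that of FOS (adjusted p = 0.0916).

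The NCI-H520 libraries enter the fits through the filter, the scaling and the shared spread, though they are neither side of the contrast. They held pigment gene footprints above the level in the other lung line. Over 20 pigment genes that were at least 10-fold higher in Hs 936.T than in A375 and at 100 CPM or more in Hs 936.T, the median level relative to Hs 936.T was 3.77% and 8.83% in the NCI-H520 DMSO libraries, against 0.612% and 0.352% in NCI-H1650. PMEL had 456 and 1202 CPM in NCI-H520.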

How the results depend on the processing

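Under DMSO the genes higher in Hs 936.T numbered 2774 (DESeq2) to 3782 (no filter on low counts) over the alternatives that kept all named genes and 2630 with stricter naming, and those higher in A375 numbered 2951 to 4082 and 2761. With 1 library left out they ran from 2968 to 3192 and from 3064 to 3419. Deviations of same-numbered libraries correlated at 0.12 between Hs 936.T and A375, the lines compared here, and at -0.02 to 0.01 between the other pairs of lines. A replicate block in the edgeR fit gave 3537 and 3691, with SOX10 called (adjusted p = 0.0186). In the RocA libraries DESeq2 called 896 and 880. Of 532 list counts under alternatives, 507 stayed within 1.5 times. With stricter naming, which was added after the data were seen and tests fewer genes, counts fell to 1 pigment gene, 3 neural crest, 7 ERK, 2 PI3K, 4 antigen presentation and 1 melanosome gene higher in A375, and to 4 neural crest, 5 p16 pathway, 2 cancer-testis, 15 oxidative phosphorylation and 13 cholesterol genes higher in Hs 936.T. DESeq2 gave 4 PI3K genes higher in Hs 936.T and, towards A375, 1 melanosome, 3 oxidative phosphorylation, 1 cholesterol and 3 cap-binding genes. Summed entries gave 1 melanosome, 1 cholesterol and 3 cap-binding genes there. Leaving out 1 library moved these counts towards A375 to 1 to 3 for the melanosome list, 3 to 6 for oxidative phosphorylation, 1 to 2 for cholesterol and 3 to 5 for the cap-binding list. Medians of neighbouring genes moved with the genes tested: the protocadherin run to -3.14 at a minimum count of 30, -3.93 in the 4 melanoma libraries alone and -3.74 with stricter naming (-4.36 to -3.78 with 1 library left out), and the keratin run to -2.90 in the 4 libraries alone, -3.51 without NCI-H520 and -2.29 with stricter naming (-3.96 to -3.02). The zinc finger run moved to -0.84 at a minimum count of 30, -2.86 with summed entries and -1.70 with stricter naming (-3.58 to -2.98), the chromosome 2 run to 1.83 in the 4 libraries alone and 1.79 with stricter naming (1.65 to 1.79), and the chromosome 8 run to 1.26 with stricter naming. The causes were not tested. Of 192 named genes 9 changed their call in at least 1 alternative. ACTA2, ATP2B4, COL1A1, FOS, GNB1, HLA-B and ITGB1 lost it, and HPS5 and SOX10 gained one. ACTA2 turned to a log2 difference of 0.0757 with summed entries.

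Each line had 2 DMSO libraries, and a gene's reads cannot be traced beyond 1 transcript entry whose name rests on lengths. A count of 0 over both libraries of a line allows a level of up to 0.448 CPM in Hs 936.T and 0.369 CPM in A375. Folds that rest on 1 to 3 counts carry their counting interval. The RocA libraries were shallower, and fewer genes could be tested there.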
